A study of Mus musculus with 6 samples.

Results

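In DC2.4, a dendritic cell line from the mouse, 10 genes of the oxygen-sensing pathway were described: the hypoxia-inducible factor (HIF) subunits Hif1a, Epas1 and Arnt, the genes Vhl, Egln1 and Egln3 that act in the destruction of the alpha subunits, and the targets Bnip3, Vegfa, Ndrg1 and Kdm3a. They were chosen by symbol, each had 1 row among the 54532 genes of the count table, and all 10 were among the 12844 genes with enough counts to test. Of the 6 libraries, 3 came from cells given ptt5 without an insert and 3 carry the label of Vdbp overexpression (the vitamin D-binding protein). Both groups were passaged into selective medium 48 h after the vector was introduced. The labels name neither the oxygen level of the culture nor whether selection left a pool or a clone. Separate transfections per library are not stated either, so a p-value here reflects only how far these samples spread, which may be technical.

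HIF is a dimer of an oxygen-labile alpha subunit, encoded by Hif1a or Epas1, and the stable partner encoded by Arnt. When oxygen is present, the prolyl hydroxylases encoded by Egln1 and Egln3 mark the alpha subunit, and the ubiquitin ligase that contains the Vhl protein sends it to the proteasome. When oxygen is low the alpha subunit accumulates, pairs with ARNT and activates genes for glucose breakdown, vessel growth and mitophagy, and in myeloid cells inflammatory signals are known to raise Hif1a as well. Most of this control acts on the protein, which RNA counts do not measure.

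Library totals lay between 15563800 and 16710975 counts, and no 2 libraries agreed within sampling noise. Gc, the mouse gene for the vitamin D-binding protein, had 0 counts in all 6 libraries, which allows up to 0.177 to 0.192 CPM (the count normalised to the TMM-adjusted library size) in a library (3 counts, counting error only), so the groups are named by their labels throughout. Of 15 myeloid and dendritic cell markers 12 were detected well enough to test, with a summed level of 4637 to 5325 CPM with empty vector and 4450 to 4926 CPM with the Vdbp label, while Flt3, Batf3 and H2-Aa, which mark dendritic cells, had at most 22 counts over the 6 libraries. The T cell, fibroblast, epithelial and erythroid lists summed to at most 10.4 CPM in any library; Cd3e, Col1a2 and Krt8 were at 0. The endothelial list summed to 42.2 to 44.3 CPM with empty vector and 43.3 to 57.2 CPM with the Vdbp label, nearly all of it from Vwf, the von Willebrand factor gene.

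HIF binds a short core, ACGTG or GCGTG, and stretches that hold it next to the start sites of members are shown first. Printed are 6 of the 10 stretches, from 5 genes. The 5 letters were searched on both strands in RefSeq promoter windows on GRCm38.p6 (250 bases before to 50 after a transcript start), which covered 8 of the 10 genes with 11 windows; Epas1 and Ndrg1 were not matched. The core stood in 7 of the 11 windows, each from a different gene, against 43.8% of all 32851 promoter windows. Sequences run 5′ to 3′ on the strand of the gene, capitals mark the core on either strand, and CACGTG holds it on both strands.
Bnip3 at chr7:138909591-138909633, minus strand: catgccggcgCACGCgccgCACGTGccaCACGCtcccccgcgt
Bnip3 at chr7:138909527-138909551, minus strand: ctccgccgccGCGTGcgtcccgccc
Egln3 at chr12:54204089-54204113, minus strand: tgcatctcagACGTGagatccaggt
Egln1 at chr8:124949308-124949332, minus strand: gccgtggtgtACGTGcagcgcgcgc
Kdm3a at chr6:71632930-71632954, minus strand: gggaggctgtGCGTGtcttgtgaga
Hif1a at chr12:73907722-73907747, plus strand: cacagacaagCACGTGagcggggcag
Bnip3 held the most matches, 5, between 117 and 31 bases before its start. Egln3 held 1, 229 bases before its start, and Egln1 held 2, of which the one shown lies 68 to 64 bases before the RefSeq start and within an exon of the gene in GENCODE M21. The Kdm3a stretch lies 27 to 23 bases before the RefSeq start and wholly within an annotated exon, and the Hif1a stretch lies 135 to 130 bases before the start and in no exon of the gene. A match is a description of these letters, not of binding.

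Hif1a and Egln3 had the highest levels of the 10 genes, and Kdm3a the lowest. On the length-corrected scale (FPKM, the count corrected for gene length and library size, as deposited) Hif1a lay at 38.4, 50.8 and 38.5 in empty-vector replicates 1 to 3 and at 28.6, 37.0 and 45.2 in Vdbp replicates 1 to 3, the order used for all values by library. Egln3 lay between 37.0 and 38.8 in all 6 libraries, and its order relative to Hif1a changed with the library (Hif1a higher in 4 of 6, lower in Vdbp replicates 1 and 2). Bnip3 followed at 23.3 to 32.6 FPKM and Egln1 at 24.2 to 28.0, a pair whose ranges overlapped. Vegfa, at 21.3 to 23.7 FPKM, stood clear of Egln1 but overlapped the lowest library of Bnip3, and Arnt stood clear below Vegfa at 11.1 to 13.4. The ranges of Epas1 (8.92 to 10.9), Ndrg1 (8.69 to 11.03) and Vhl (7.62 to 9.21) overlapped. Within a library, Epas1 lay above Vhl in 6 of 6 and Ndrg1 above Vhl in 5 of 6. Epas1 lay above Ndrg1 in 3 of 6, which were the empty-vector libraries. That split was seen in the values and was not tested. Kdm3a stood below all others at 3.17 to 5.28 FPKM. Among all tested genes these levels ranged from the 89.0th percentile of mean FPKM for Hif1a to the 40.9th for Kdm3a.

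**Figure D1:**
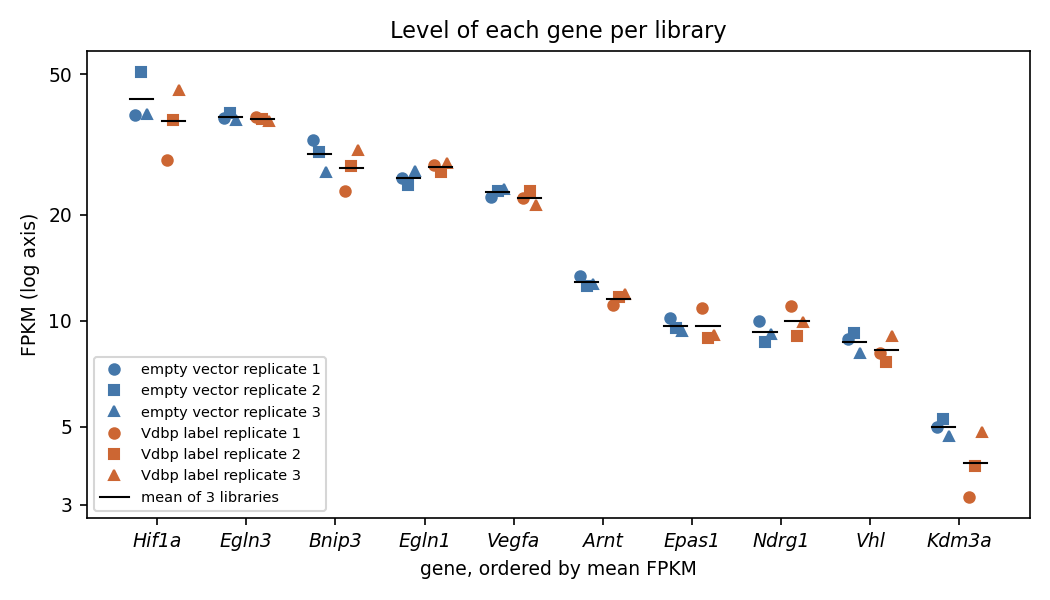
Level of each gene in FPKM (vertical log axis) in the 3 empty-vector libraries (blue) and the 3 libraries labelled Vdbp (orange), with symbols for the replicate numbers and bars for the group means. Hif1a and Kdm3a were the most spread of the 10 genes, while Egln3 lay between 37.0 and 38.8 FPKM in every library.

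Hif1a, the inducible alpha subunit (ENSMUSG00000021109, chromosome 12, 73901375 to 73947530, plus strand), had 227, 304 and 228 CPM with empty vector and 170.1, 219 and 268 CPM with the Vdbp label. Empty-vector replicate 2 was the highest and Vdbp replicate 1 the lowest, and the groups overlapped because Vdbp replicate 3 lay above empty-vector replicates 1 and 3. The group means were 253 ± 44.0 and 219 ± 48.9 CPM (SD, n = 3 each). The log2 fold change of the Vdbp label over empty vector was −0.21 (SE 0.16, 95% interval −0.56 to 0.14, adjusted p 0.782). These are whole-culture RNA levels, in which fewer cells with the transcript and less transcript per cell cannot be told apart.

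Epas1, which encodes HIF-2 alpha (ENSMUSG00000024140, chromosome 17, 86753907 to 86833410, plus strand), had 54.1, 51.3 and 49.9 CPM with empty vector and 58.3, 47.4 and 48.6 CPM with the Vdbp label. Vdbp replicate 1 was the highest library of the 6 for Epas1 while it was the lowest for Hif1a. The group means of 51.7 ± 2.15 and 51.4 ± 5.95 CPM were closer to each other than the SD of either, and the log2 fold change was −0.01 (SE 0.11, 95% interval −0.25 to 0.24). Per length, Hif1a exceeded Epas1 in each library, by 3.77, 5.33 and 4.12 times in the empty-vector libraries and by 2.63, 4.15 and 4.97 times in those labelled Vdbp. That ratio did not differ beyond the spread between libraries (exact two-sided permutation test, p = 0.70, adjusted 0.80 over 4 ratios, where 3 against 3 cannot go below 0.10).

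Arnt, the shared beta subunit (ENSMUSG00000015522, chromosome 3, 95434388 to 95497240, plus strand), had 107, 102 and 102 CPM with empty vector and 89.4, 93.4 and 96.0 CPM with the Vdbp label. It was the only member whose groups did not overlap; among all tested genes 5.61% did not overlap in this direction. The means were 104 ± 3.14 and 92.9 ± 3.34 CPM, a log2 fold change of −0.16 (SE 0.09, 95% interval −0.35 to 0.03), and the difference did not pass the test (adjusted p 0.781). The ratio of Hif1a to Arnt per length was 3.32 ± 0.65 with empty vector and 3.19 ± 0.60 with the Vdbp label (exact permutation p = 0.80, adjusted 0.80).

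Of the genes that act on the alpha subunits, Egln3 varied least between libraries. Egln3, a hydroxylase that is itself a known HIF target (ENSMUSG00000035105, chromosome 12, 54178981 to 54203860, minus strand), had 100.5, 105 and 99.2 CPM with empty vector and 102, 99.4 and 98.96 CPM with the Vdbp label. Its range over the 6 libraries, 0.08 on the log2 scale, was at the 0.319th percentile of all tested genes, whose median range was 0.49. The group means were 101 ± 2.88 and 100.1 ± 1.54 CPM, with a log2 fold change of −0.02 (SE 0.09, 95% interval −0.21 to 0.17).

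Egln1, the main oxygen-sensing hydroxylase (ENSMUSG00000031987, chromosome 8, 124908587 to 124949324, minus strand), had 91.3, 88.2 and 95.9 CPM with empty vector and 100.2, 95.3 and 101 CPM with the Vdbp label. The groups overlapped in 1 pair of libraries, empty-vector replicate 3 and Vdbp replicate 2. The log2 fold change was 0.11 (SE 0.09, 95% interval −0.09 to 0.30, adjusted p 0.784). Egln3 exceeded Egln1 per length by 1.49 ± 0.10 times with empty vector and 1.37 ± 0.044 times with the Vdbp label (exact permutation p = 0.20, adjusted 0.80).

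Vhl, the substrate receptor of the ligase (ENSMUSG00000033933, chromosome 6, 113623959 to 113631633, plus strand), had 26.6, 28.0 and 24.4 CPM with empty vector and 24.5, 22.9 and 27.2 CPM with the Vdbp label. The groups overlapped, and the log2 fold change was −0.08 (SE 0.12, 95% interval −0.34 to 0.18, adjusted p 0.837). A processed pseudogene, Vhl-ps1, had 0 counts in all libraries.

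Of the targets, Kdm3a had the largest difference between the groups of the 10 genes. Kdm3a encodes a demethylase of histone H3 that needs oxygen for its reaction (ENSMUSG00000053470, chromosome 6, 71588972 to 71632990, minus strand). It had 41.2, 44.0 and 38.8 CPM with empty vector and 26.3, 31.9 and 39.8 CPM with the Vdbp label. Vdbp replicates 1 and 2 lay below every empty-vector library, but Vdbp replicate 3 lay within the empty-vector range. The means were 41.3 ± 2.58 and 32.7 ± 6.80 CPM, a log2 fold change of −0.34 (SE 0.15, 95% interval −0.66 to −0.02). The unadjusted p was 0.0381, and over all genes the difference did not pass (adjusted p 0.781).

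Bnip3, a mitochondrial receptor for mitophagy (ENSMUSG00000078566, chromosome 7, 138890836 to 138909519, minus strand), had 73.8, 69.1 and 59.9 CPM with empty vector and 53.3, 62.4 and 69.4 CPM with the Vdbp label. The spread within each group exceeded the difference of the means, 67.6 ± 7.07 and 61.7 ± 8.07 CPM. Its log2 fold change was −0.13 (SE 0.12, 95% interval −0.40 to 0.13, adjusted p 0.790).

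Vegfa, the vascular endothelial growth factor (ENSMUSG00000023951, chromosome 17, 46016993 to 46032369, minus strand), had 96.5, 101 and 102 CPM with empty vector and 96.4, 100.4 and 91.7 CPM with the Vdbp label. It was the steadiest member after Egln3, with a range of 0.15 on the log2 scale, at the 3.13th percentile of tested genes. The log2 fold change was −0.05 (SE 0.09, 95% interval −0.25 to 0.14, adjusted p 0.851).

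Ndrg1, a stress-responsive cytoplasmic protein (ENSMUSG00000005125, chromosome 15, 66929318 to 66969640, minus strand), had 65.96, 58.03 and 60.6 CPM with empty vector and 73.4, 59.9 and 65.6 CPM with the Vdbp label. Vdbp replicate 1 was the highest library and the groups overlapped. The log2 fold change was 0.11 (SE 0.11, 95% interval −0.13 to 0.34, adjusted p 0.797).

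Across the 10 genes, edgeR called none at an adjusted p under 0.05, as it called 0 of all 12844 tested genes (0%). At an unadjusted p under 0.05 there was 1 member, Kdm3a, against 5.35% of all tested genes, and DESeq2 and limma-voom also called no member. The log2 fold change was below 0 for 8 of the 10 genes, against 51.3% of all tested genes, with a median of −0.07 against −0.01. For 9 of the 10 genes the 95% interval lay within 1.5-fold in either direction, and for Kdm3a within 2-fold. Of all tested genes, some with far lower counts than the members, 70.7% lay within 1.5-fold and 89.3% within 2-fold. These intervals reflect only the spread between these samples, which may be technical.

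**Figure D2:**
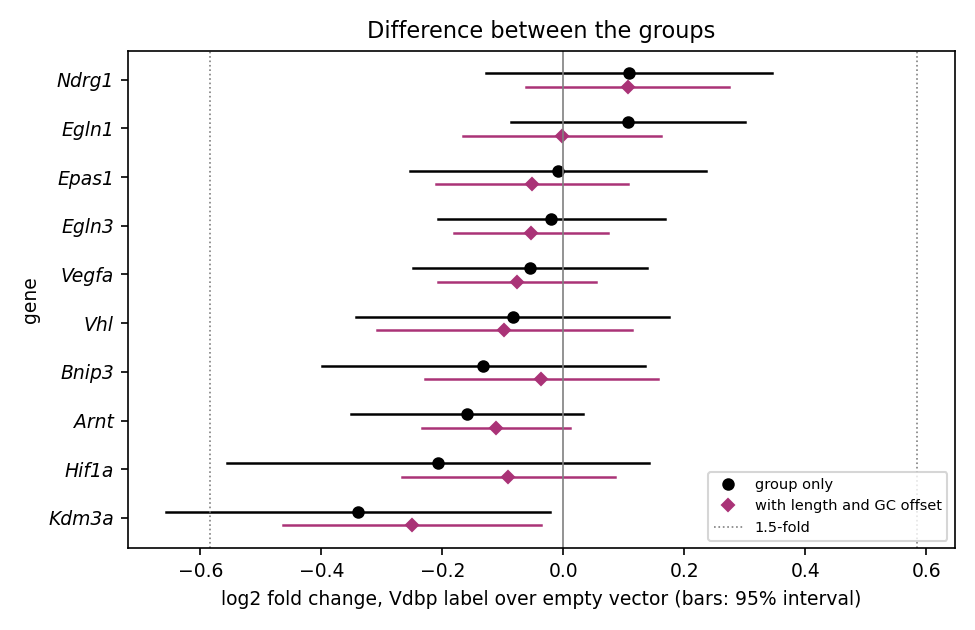
Log2 fold change of the Vdbp label over empty vector for each gene with its 95% interval, from the comparison by group (black) and after correction for gene length and GC content (purple); dotted lines mark 1.5-fold. Only the Kdm3a interval reached past 1.5-fold and lay wholly below 0, and its adjusted p was 0.781.

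The members with the largest spread between libraries were AT-rich genes, and the libraries themselves differed in a trend with GC content. In Spearman's rho across genes, which are not independent, the deviation of a library from the gene mean followed GC content most in empty-vector replicate 2 (−0.62) and Vdbp replicate 1 (0.73). Hif1a (41.3% GC in its longest transcript), Bnip3 (41.6%) and Kdm3a (45.5%) lay below the median of tested genes (49.5%), and all had their lowest level in Vdbp replicate 1. Hif1a deviated from its mean by 0.39 in empty-vector replicate 2 and −0.45 in Vdbp replicate 1 on the log2 scale. Tested genes of 40% to 45% GC had a median log2 fold change of −0.11, between the values of Hif1a and 0, while genes of 55% to 60% GC had 0.13, near the 0.11 of Egln1 (56.0% GC). The part of this trend in the differences of single genes was not tested beyond the correction given next.

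**Figure D3:**
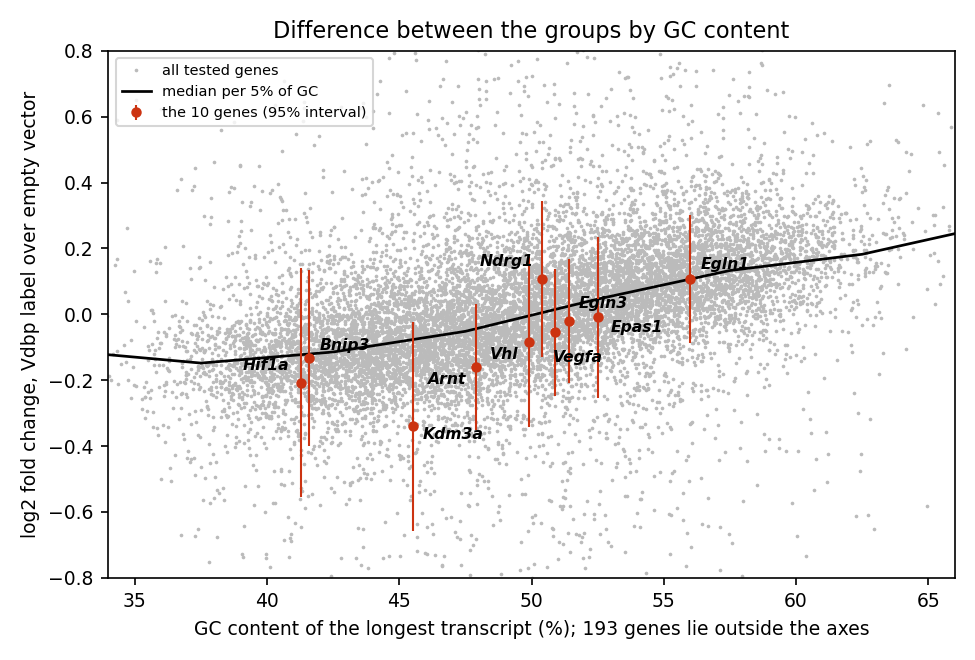
Log2 fold change of the Vdbp label over empty vector against the GC content of the longest transcript, for all tested genes (grey), their median per 5% of GC (line) and the 10 genes with 95% intervals (red). Bnip3 sits close to the median of genes of its GC content. Hif1a, Arnt and Kdm3a sit below the median of theirs, with 95% intervals that reach it.

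When the dependence of each library on GC content and gene length was removed by a smooth fit, the log2 fold change of Hif1a went from −0.21 to −0.09 (95% interval −0.27 to 0.08), that of Bnip3 from −0.13 to −0.04 and that of Egln1 from 0.11 to 0.00. Kdm3a went from −0.34 to −0.25 (SE 0.10, 95% interval −0.46 to −0.04, adjusted p 0.536) and Arnt from −0.16 to −0.11 (SE 0.06, 95% interval −0.23 to 0.01, adjusted p 0.598). The range of Hif1a over the 6 libraries shrank from 0.84 to 0.34 on the log2 scale, close to the median of all tested genes after the correction (0.33), and that of Kdm3a from 0.74 to 0.46. The range of Egln3 grew from 0.08 to 0.16, so that after the correction it was no longer the smallest of the 10 genes: Vegfa and Arnt also stood at 0.16, slightly below it. After the correction 9 of the 10 genes had a log2 fold change below 0, against 50.2% of all tested genes. Among the 9 was Egln1, at only −0.0025 (95% interval −0.17 to 0.16). No member was called, against 0.0156% of all tested genes, and 1, Kdm3a, had an unadjusted p under 0.05, against 8.89%.

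**Figure D4:**
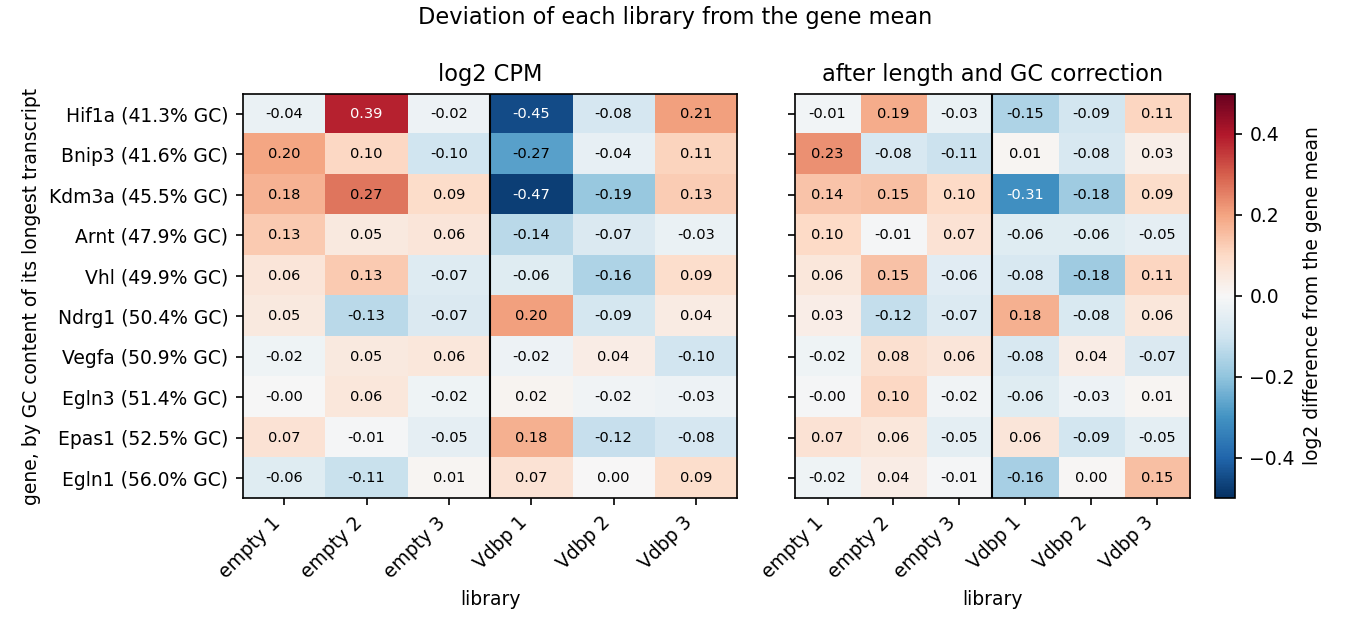
Difference of each library from the gene mean on the log2 scale (numbers and colours), with genes ordered by GC content, before (left) and after (right) the correction for gene length and GC content. On the left the AT-rich genes at the top are low in Vdbp replicate 1 (Hif1a −0.45, Kdm3a −0.47), and on the right these values are −0.31 for Kdm3a and −0.15 for Hif1a.

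Other genes of the pathway were taken from lists of known oxygen-sensing genes and HIF targets, and no listed gene passed over all tested genes (edgeR, 0%; the smallest adjusted p was 0.781). Of 11 further oxygen-sensing genes 10 were tested, 7 with a log2 fold change above 0 and 3 below, with a median of 0.07. Cited2, a competitor of HIF for its co-activators, had 79.5, 72.4 and 83.6 CPM with empty vector and 87.5, 87.2 and 90.01 CPM with the Vdbp label. Its groups did not overlap, as for 5.26% of tested genes in this direction, and its log2 fold change was 0.17 (SE 0.09), or 0.08 after the length and GC correction. Elob, a subunit of the Vhl ligase and the gene of this list with the highest CPM, had a log2 fold change of 0.13 (SE 0.10) that turned to −0.06 after it. Cul2, the scaffold of that ligase, stood at −0.21 (SE 0.15), or −0.09 after it, and Arnt2, a relative of Arnt, at −0.21 (SE 0.15), or −0.23 after it. Hif3a was not tested for lack of counts.

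Among glycolytic HIF targets 18 of 21 had a log2 fold change above 0, against 6253 of all 12844 tested genes, with a median of 0.11, or 0.07 after the length and GC correction (17 of 21). At an unadjusted p under 0.05, 4 were higher, Gapdh among them, and 1 lower, against 2.81% and 2.54% of all tested genes. With the length and GC correction 5 were higher, again with Gapdh, and 1 lower, against 570 higher and 571 lower of 12834 tested genes. Pfkl, a phosphofructokinase, had 102, 88.2 and 120.1 CPM with empty vector and 167, 135.5 and 114.8 CPM with the Vdbp label, a log2 fold change of 0.43 (SE 0.14) with overlapping groups, which was 0.28 without Vdbp replicate 1, 0.17 without that library and empty-vector replicate 2, and 0.32 after the correction. Pfkfb3, a regulator of the same step, had 117, 116 and 102 CPM with empty vector and 88.7, 84.9 and 86.1 CPM with the Vdbp label. Its groups did not overlap. In this list that held for 1 lower gene, Pfkfb3, and 2 higher genes, against 5.61% and 5.26% of all tested genes. The log2 fold change of Pfkfb3 was −0.36 (SE 0.09, adjusted p 0.781) and −0.36 after the correction. Pkm, the pyruvate kinase gene with the highest level of the list, stood at 0.24 (SE 0.12), or 0.11 after the correction. The value of Gapdh (2.03) rested on Vdbp replicate 2 alone, which had 231 CPM against 21.4 to 28.5 CPM in the others, and without it the log2 fold change was 0.18. In every library these counts lay far below the mean of Pkm (4931 CPM). Reads shared with similar copies were not searched for, so the level of Gapdh is uncertain.

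Of 40 other HIF targets 31 were tested, 12 with a log2 fold change above 0 and 19 below, with a median of −0.05, or −0.01 after the length and GC correction. At an unadjusted p under 0.05, 1 was higher and 2 lower, against 2.81% and 2.54% of all tested genes. After the correction 0 were higher and 5 lower, against 570 higher and 571 lower of 12834 tested genes. Mif, a cytokine of macrophages and T cells, had 432, 375 and 429.8 CPM with empty vector and 622, 437 and 487 CPM with the Vdbp label, a log2 fold change of 0.32 (SE 0.13) that became 0.10 after the length and GC correction. Bnip3l, the closest relative of Bnip3 and also a mitophagy receptor, had 86.1, 93.8 and 78.7 CPM with empty vector and 64.0, 75.1 and 77.3 CPM with the Vdbp label, a log2 fold change of −0.26 (SE 0.11), and −0.15 after the correction. Gbe1, the glycogen branching enzyme, stood at −0.28 (SE 0.12), and −0.17 after it. The groups did not overlap for these 3 genes and for 1 other of the 31, Kdm4c, named after its values were seen, against 10.9% of all tested genes. Nos2, the inducible nitric oxide synthase, had the highest mean CPM of this list, but per length it lay below Mif (127 against 619 FPKM on average). Nos2 had 663, 612 and 553 CPM with empty vector and 609, 451 and 498 CPM in the libraries labelled Vdbp. Its log2 fold change was −0.23 (SE 0.12) with overlapping groups, and −0.31 (SE 0.08, adjusted p 0.480) after the correction. Adm, Epo, Edn1, Pgf, Car9, Car12, Lox, Ndufa4l2 and Stc2 were not tested for lack of counts, and the highest mean among them was 0.58 CPM.

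**Figure D5:**
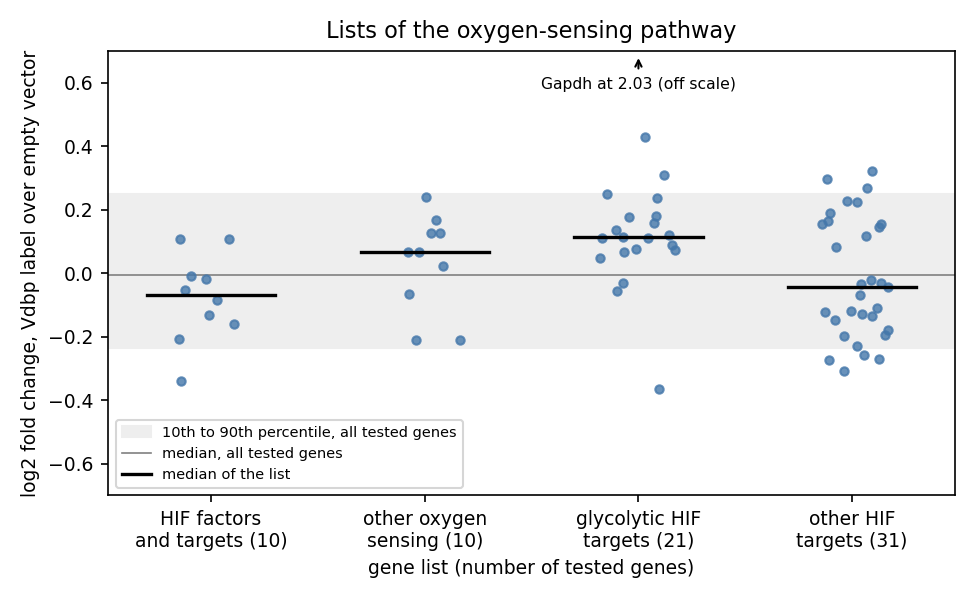
Log2 fold change of the Vdbp label over empty vector for each tested gene of the 4 lists (points), with the list medians (black bars) and the 10th to 90th percentile of all tested genes (−0.24 to 0.25, grey band). The medians were −0.07 for the 10 HIF factors and targets, 0.07 for other oxygen-sensing genes, 0.11 for glycolytic targets and −0.05 for other targets.

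The genes closest to Hif1a and to Vegfa in their course over the 6 libraries were found by the root mean square difference of the log2 level after centring each gene, among 8693 protein-coding genes with a mean of at least 10 CPM. For Hif1a they were Ppp4r3b (0.021), a regulatory subunit of a protein phosphatase, Zdhhc20 (0.026), a palmitoyltransferase, and Odf2l (0.027). All were AT-rich, with 40.1%, 38.8% and 43.7% GC, and, like Hif1a, highest in empty-vector replicate 2 and lowest in Vdbp replicate 1. For Vegfa they were Klhl12 (0.020), an adaptor of a ubiquitin ligase, Smap2 (0.022), a regulator of vesicle traffic, and Ppp2r2d (0.025), a phosphatase subunit. The GC contents of these were 42.3%, 53.5% and 45.1%. Vegfa had a range of only 0.15 on the log2 scale, so the genes close to it are ones that also varied little. The levels compared were not corrected for length or GC content.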

How the data were processed

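Messenger RNA libraries of DC2.4 cells were analysed, 3 per group. Per the submitters' processing notes, HISAT2 and StringTie were used. Not given in the sources used here were their versions, the build, the counter and the strand setting. Whole-number counts per Ensembl gene and, in another table, FPKM were deposited by the authors. Each deposited FPKM value equalled the count divided by gene length and 1 constant per library (largest relative gap 5.1e-15). Of the gene identifiers 99.9% were in GENCODE M21 (GRCm38), 98.3% of them at the same position. Coordinates are those of the deposited table.

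Counts were filtered with filterByExpr (minimum count 10, minimum total 15, minimum proportion 0.7), scaled by TMM and compared by edgeR 4.0.16 (quasi-likelihood F test, group only, two-sided, Benjamini-Hochberg over 12844 genes, threshold 0.05) in R 4.3.3. Alternatives used DESeq2 1.42.0, limma 3.58.1 and an offset from smooth trends on gene length and GC content (mgcv 1.9.3, GC of the longest GENCODE transcript, 12834 genes). The procedure was tested on simulated counts. The 10 genes and the lists were chosen with earlier results of these data known. Besides the members and Gc, the text names from each list the gene with the highest CPM, the 3 with the smallest p and all that were not tested, and for Hif1a and Vegfa the 3 genes of the most similar course; Car9, Egln2 and Kdm4c were added after their values were seen. Antisense genes overlap exons of Hif1a, Bnip3 and Ndrg1, with at most 48 counts in all against at least 6267 for the member. Reads shared with similar copies were not searched for, so Gapdh, Mif, Pkm and other genes with copies are uncertain.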

Additional observations from a re-analysis of the deposited data

How the results depend on the processing

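No member was called under any of the 19 alternatives, and the lowest adjusted p of a member was 0.418 (Hif1a and Kdm3a, which were at −0.38 and −0.51 without Vdbp replicate 3). Hif1a was at −0.050 without Vdbp replicate 1 and −0.054 without empty-vector replicate 2. Over all tested genes, edgeR called 0 by group alone, 2 with the length and GC offset, 89 with no filter on low counts (Pfkl and Gapdh among them, no member) and 2 with empty-vector replicate 2 and Vdbp replicate 1 both left out, while DESeq2 called 11. Leaving out each library in turn gave 0 to 22 calls, the 22 without empty-vector replicate 3. Arnt, Vhl, Bnip3, Vegfa and Kdm3a kept their sign in all 19, with Kdm3a between −0.51 and −0.16. The log2 fold change changed sign for Egln1 (−0.0025 with the length and GC offset, −0.0063 with the replicate block added) and Elob (−0.061 and −0.060, and −0.028 with empty-vector replicate 2 and Vdbp replicate 1 both left out). Leaving out each library in turn moved Epas1 between −0.11 and 0.047, above 0 without empty-vector replicate 1, Vdbp replicate 2 or Vdbp replicate 3, and Egln3 between −0.035 and 0.0036, above 0 without empty-vector replicate 2. Without both empty-vector replicate 2 and Vdbp replicate 1, Hif1a turned to 0.095, Ndrg1 to −0.015 and Cul2 to 0.075; the cause was not tested. With the replicate number as a block (replicate block) 0 genes were called by edgeR, and the number at an unadjusted p under 0.05 was 695 against 687. Deviations of same-numbered libraries correlated at 0.14, 0.03 and −0.27, and not every library correlated best with its own number. This cannot decide whether the numbers pair the samples, because the trend of the libraries with GC content was not removed from these deviations. Every member had at least 383 counts in every library, and the 9 targets with too few counts to test had a mean of at most 0.58 CPM.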

Other observations

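Several classical HIF targets were close to silent in these cells, but most listed targets were not. Of the 40 other HIF targets 9 had too few counts to test and 31 were tested, as were all 21 glycolytic targets. Epo and Stc2 had 0 counts in all 6 libraries. Car9, a carbonic anhydrase at the cell surface and a common marker of HIF activity, had 8, 13 and 13 counts in the empty-vector libraries against 4, 6 and 4 in those labelled Vdbp, and did not pass the filter on low counts. Its groups did not overlap in CPM, at these few counts. Among the tested genes, which do not include Car9, 5.61% did not overlap in this direction. Car9 was singled out after its values were seen. Egln2, the third prolyl hydroxylase, also singled out after its values were seen, averaged 27.4 ± 3.52 CPM in the empty-vector libraries against 32.3 ± 8.92 CPM in the others (SD, 3 libraries each), with 62.2% GC and a log2 fold change of 0.24 that became 0.03 after the length and GC correction.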
